A study of Sus scrofa with 24 samples.

Results

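Sinusoidal endothelial genes, a set of 10 known markers of the vessel lining of the liver, were followed in whole-liver RNA of pig fetuses. They encode the hyaluronan and scavenger receptors LYVE1, STAB1 and STAB2, the receptor tyrosine kinases KDR, TEK and TIE1, the junction proteins CDH5 and PECAM1, the TGF-beta co-receptor ENG and the sialomucin EMCN. The members were found by their symbols in the annotation of the array, and all 10 had at least 1 probe set. Together they had 19 probe sets among 26426 that carry a gene symbol, which stand for 13755 genes. The study examined livers of F2 fetuses of crossed German Landrace and Pietrain stock at 63 dpc (days post conception) and set growth-restricted fetuses (IUGR) against fetuses of appropriate weight (AGA). The Affymetrix Snowball pig array was used, with 1 array for each of 24 livers. The sample labels give a fetus number and the age, but neither growth group, sex nor dam. No groups were therefore compared and all values are given over the 24 livers. The study selected littermate pairs of the same sex that differed in weight, so the livers are not independent and p-values over livers are approximate.

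Liver sinusoids are capillaries whose endothelial cells have open pores, almost no basement membrane, and an unusually strong capacity to take up molecules from the blood. LYVE1 and STAB2 bind hyaluronan, and STAB1 and STAB2 are large scavenger receptors that clear modified proteins and matrix fragments. VEGFA, made largely by hepatocytes in the liver, acts on these cells through KDR (VEGF receptor 2), while FLT1 (VEGF receptor 1) binds the same ligand. Angiopoietins act through TEK, also known as TIE2, with TIE1 as its partner. CDH5 is VE-cadherin, the adhesion molecule of endothelial junctions. In the fetus the same vessels enclose the blood-forming cells for which the liver is a main site. Some of the 10 genes are not restricted to endothelium in mammals, since macrophages can express LYVE1 and STAB1, platelets and leukocytes carry PECAM1, and blood-forming cells can express TEK and ENG.

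Levels are log2 values after RMA, in which a difference of 1 is a 2-fold difference in signal, and the level of one probe set cannot be set against that of another. A probe set passed the filter on low signals with a level of 6 or more on 18 or more of the 24 arrays, and each gene was represented by its probe set with the highest mean. Of all named probe sets, 82.0% had a median level below 6. The median of the 69 background controls was 1.55, but 15 of them had a median level above 6. Their 95th percentile was 6.52 on the lowest array and 6.89 on the highest. A level just above 6 thus still overlapped the upper background, and passing the filter alone does not show detection. The array medians lay between 2.81 and 2.89. Markers of hepatocytes were well represented, with 11 of 12 genes past the filter. The exception was AHSG, with levels of 0.91 to 1.47, so a known marker of an abundant cell type can also stay below the limit. Whole-liver RNA was measured, in which fewer cells of a type and less RNA per cell cannot be told apart.

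Of the 10 endothelial genes, 6 passed the filter, namely LYVE1, STAB2, CDH5, KDR, TEK and ENG, and 3379 genes passed in the whole series. The 4 genes that did not pass were STAB1, PECAM1, TIE1 and EMCN. Of the 19 probe sets, 10 passed. For STAB2, CDH5, KDR, TEK and ENG the probe set used lay above the 95th percentile of the background of its own array in 24 of 24 livers, and for LYVE1 this held in 10 of 24.

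Among the hyaluronan and scavenger receptors, STAB2 was above the upper background in every liver, LYVE1 overlapped it and STAB1 did not pass. STAB2 had a lowest level of 7.42 (fetus 320), a median of 7.78 and a highest level of 8.29 (fetus 303), a 1.83-fold span between the extreme livers. Fetus 312 followed with 8.22 and fetus 329 with 8.02, so the upper end of STAB2 rested on 2 livers. A further STAB2 probe set did not pass and had levels from 4.40 to 5.10. LYVE1, the hyaluronan receptor named after lymphatic vessels but also a marker of sinusoids, ranged from 6.11 (fetus 338) to 7.13 (fetus 274) with a median of 6.67. Its 2.03-fold span was the widest of the 6 genes, with fetus 340 (6.19) and fetus 313 (6.31) next to the lowest and fetuses 303 (7.09) and 311 (7.06) next to the highest. The low LYVE1 livers thus lay at levels that the upper background also reached. The other LYVE1 probe set did not pass, with a median of 2.88. STAB1 had levels between 5.02 (fetus 320) and 6.07 (fetus 281) with a median of 5.49, and reached the limit of 6 on 1 of the 24 arrays.

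The VEGF and angiopoietin receptors KDR and TEK were above background in every liver, each with a pair of probe sets that passed. KDR, the main signalling receptor for VEGFA, ranged from 7.65 (fetus 340) to 8.39 (fetus 312) around a median of 7.97, a 1.67-fold span. Fetuses 324 (7.66) and 338 (7.72) were also low, and fetuses 360 (8.23) and 311 (8.20) also high. The second KDR probe set ranged from 7.54 to 8.19, likewise with fetus 312 highest. The remaining KDR probe sets, with medians of 4.06 and 2.80, did not pass. TEK, the angiopoietin receptor, ranged from 7.41 (fetus 311) to 8.02 (fetus 281) with a median of 7.66, a 1.53-fold span, and its second probe set from 7.13 to 7.72. The 3 lowest TEK livers, fetuses 311, 340 and 352, had 7.41, 7.42 and 7.42. TIE1, the partner of TEK, had levels of 4.32 (fetus 327) to 5.09 (fetus 297) with a median of 4.67 and was below the limit in all livers.

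Of the junction and surface genes, CDH5 and ENG passed and PECAM1 and EMCN did not. CDH5 had a lowest level of 6.98 in fetus 376, a median of 7.35 and a highest level of 7.57 in fetus 329, a 1.50-fold span. Fetus 376 stood below the next liver, fetus 313 with 7.19, while the 3 highest livers (329, 311 and 297) lay between 7.55 and 7.57. Both other CDH5 probe sets passed, with medians of 6.74 and 6.68, but lay above the upper background of their own array in 13 and 11 of 24 livers. ENG, the endoglin co-receptor for BMP9 and TGF-beta ligands, had the narrowest span of the 6 genes, 1.42-fold, from 7.98 (fetus 329) to 8.49 (fetus 281) with a median of 8.20. The 3 highest ENG livers, fetuses 281, 352 and 272, had 8.49, 8.47 and 8.45. PECAM1, a junction protein shared with platelets and leukocytes, had levels between 2.77 (fetus 370) and 5.28 (fetus 338) around a median of 4.04. The 5.70-fold span of PECAM1 lay wholly below the limit, at levels within the range of the background controls. EMCN, a sialomucin of capillaries and veins, had levels of 4.05 (fetus 320) to 5.11 (fetus 370) with a median of 4.46, and its second probe set had a median of 1.89.

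**Figure D1:**
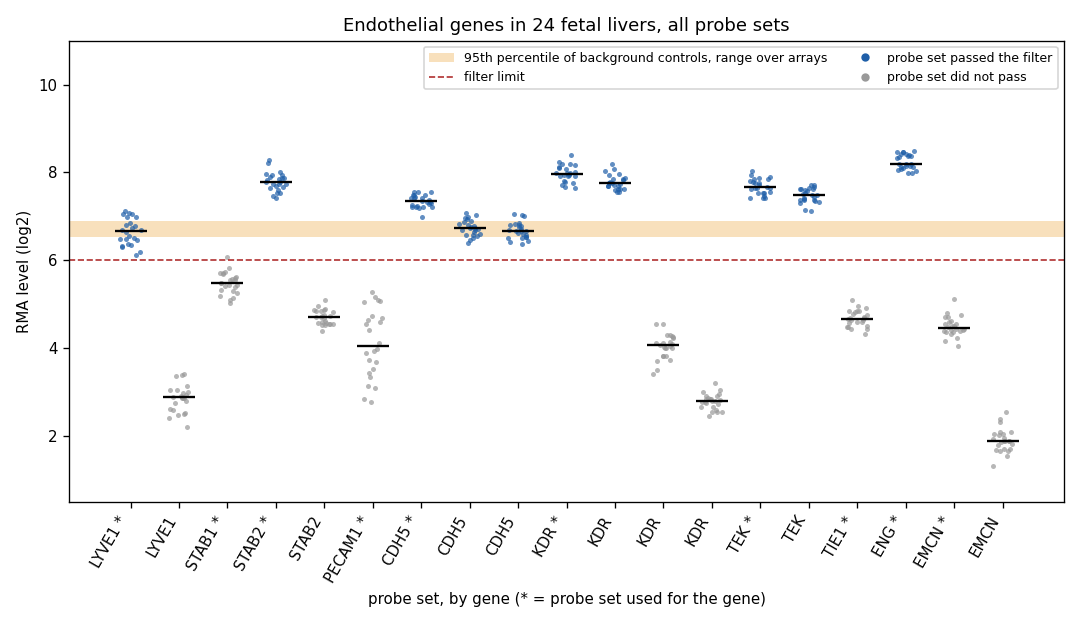
Log2 RMA level (vertical axis) of the 19 probe sets of the 10 endothelial genes, 1 point per liver and a bar at the median; stars mark the probe set used for each gene, the dashed line the limit of 6 and the shaded band the range of the 95th percentile of the background controls over the arrays. The 10 probe sets that passed include those of LYVE1 and CDH5 that overlap the band, and all probe sets of STAB1, PECAM1, TIE1 and EMCN lie below the line except 1 liver for STAB1.

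The 6 genes that passed had spans close to those of the other genes. Their spans ran from 1.42-fold for ENG to 2.03-fold for LYVE1 with a median of 1.60-fold, against a median of 1.64-fold over the 3379 genes, and 3 of the 6 lay below that median. A smaller span than that of LYVE1 was found in 82.6% of all genes, than that of STAB2 in 70.9% and than that of ENG in 16.8%. The 9 hybridization spike-in controls with a clear signal, transcripts added alike to every hybridization, spanned 1.26-fold to 1.68-fold with a median of 1.53-fold. The 21 other spike-in controls with a median of 6 or more spanned 1.67-fold to 3.06-fold with a median of 2.15-fold. No endothelial gene that passed had a wider span than the widest of these 21 controls. The 75th percentile of all genes, 1.89-fold, was also below the median of these controls, so this bound does not set the endothelial genes apart. Only the spans of STAB2 and LYVE1 were wider than those of the 9 hybridization controls. For none of the 6 genes was the largest gap between neighbouring livers, relative to the standard deviation, wider than a limit from simulated normal values. The outermost gaps at each end were left out, so very small groups of livers could not be found this way.

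How far the pattern of a gene over the livers depended on the probe set was examined for the genes with several. The 2 passing KDR probe sets followed each other with a Pearson r of 0.774 (Spearman's rho 0.689), and the 2 TEK probe sets with an r of 0.782 (rho 0.752). The 3 CDH5 probe sets agreed less, with r of 0.493, 0.525 and 0.405. Over 1493 pairs of passing probe sets, from 703 genes, the median r was 0.514, with an interquartile range of 0.278 to 0.731. KDR and TEK thus lay above this range and CDH5 near its middle. Between a passing and a low probe set, r was 0.389 for LYVE1, 0.470 for STAB2 and between 0.0976 and 0.400 for 4 such pairs of KDR.

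Some livers were high or low for several of the genes, without a common order for all 6. Fetus 340 was among the 3 lowest livers for LYVE1 (6.19), STAB2 (7.52), KDR (7.65) and TEK (7.42), but had an ENG level of 8.41, above the ENG median. Fetus 338 was among the 3 lowest for LYVE1 and KDR, and fetus 283 for STAB2 and ENG. Fetus 303 was among the 3 highest for LYVE1 (7.09), STAB2 (8.29) and TEK (7.90), and fetus 312 for STAB2 and KDR. Fetus 311 went both ways, with LYVE1, CDH5 and KDR among the 3 highest and TEK (7.41) and ENG (8.04) among the 3 lowest. Fetus 281 was among the 3 highest for TEK and ENG, and fetus 329 among the 3 highest for STAB2 and CDH5 but the lowest of all for ENG.

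**Figure D2:**
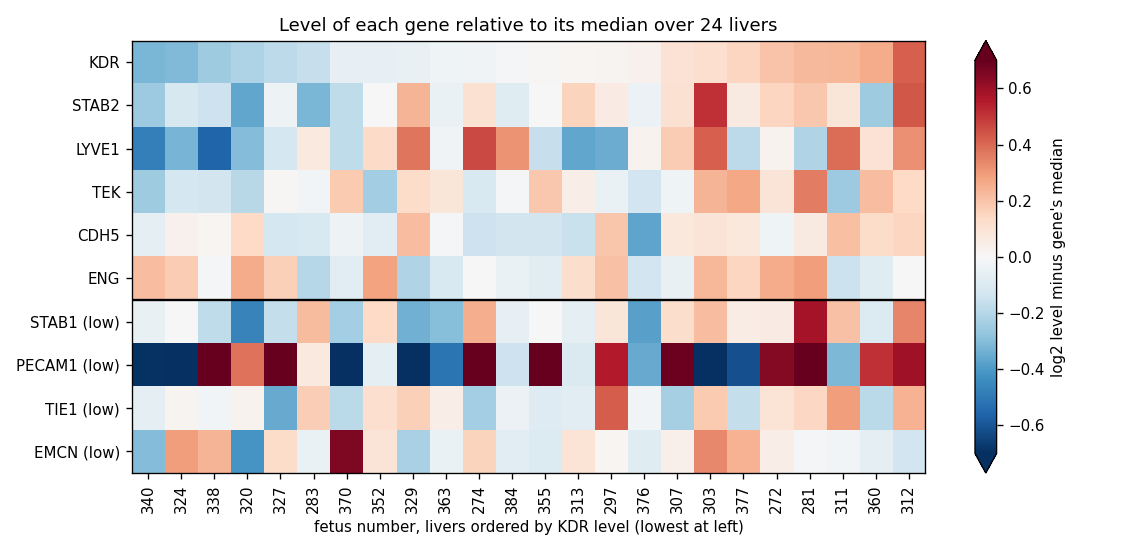
Difference between the log2 level of each gene in each liver and the median of that gene over 24 livers (colour), with livers ordered from the lowest to the highest KDR level; the 4 genes below the black line did not pass the filter. STAB2, LYVE1 and TEK tend towards blue at the left, where fetus 340 has the lowest KDR level of 7.65, and towards red at the right, where fetus 312 has 8.39, while ENG does not follow KDR.

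Whether the endothelial genes varied together over the livers was tested for all pairs of genes that passed, with p-values adjusted over 5707131 pairs. None of the 15 pairs among the 6 endothelial genes passed an adjusted p of 0.05 in the positive or the negative direction, by Pearson's r with Benjamini-Hochberg adjustment, while 1.79% of all pairs passed with positive r and 0.562% with negative r. The smallest r that passed was 0.622. At an unadjusted p below 0.05, 5 of the 15 pairs had a positive r, and 10.3% of all pairs did. The median r of the 15 pairs was 0.180 against 0.0437 over all pairs, and r was above 0 in 12 of the 15 pairs against 55.9% of all pairs.

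The 5 pairs with an unadjusted p below 0.05 all lay among KDR, STAB2, LYVE1 and TEK. STAB2 and KDR had the highest r of 0.621 with an adjusted p of 0.0509, just outside the threshold, a rho of 0.623, and permutation p-values of 0.0012 for r and 0.0013 for rho. Without fetuses 312 and 303, the farthest from the STAB2 median, r was 0.531. Single livers moved the call of this pair, since it passed without fetus 360 (r of 0.753), fetus 329 (0.654) or fetus 303 (0.646), and r was 0.528 without fetus 312. Fetus 360 combined a high KDR level of 8.23 with a low STAB2 level of 7.53.

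KDR and TEK, the receptors for VEGF and for the angiopoietins, had an r of 0.534 with an adjusted p of 0.125, a rho of 0.485, and permutation p-values of 0.0070 and 0.0175. Fetus 311, with high KDR and the lowest TEK level, decided the call of this pair. Without it r was 0.679 and the pair passed, and without fetuses 340 and 312, the farthest from the KDR median, r was 0.468. LYVE1 and KDR had an r of 0.518 with an adjusted p of 0.144, a rho of 0.436, and permutation p-values of 0.0096 and 0.0340, and r was 0.368 without fetuses 340 and 338. The hyaluronan receptors LYVE1 and STAB2 had an r of 0.491 with an adjusted p of 0.178, a rho of 0.422, and permutation p-values of 0.0143 and 0.0407, and r was 0.417 without the same livers. STAB2 and TEK had an r of 0.418 with an adjusted p of 0.288, a rho of 0.411, and permutation p-values of 0.0424 and 0.0482, and r was 0.303 without fetuses 312 and 303. Both r values of LYVE1 were thus lower when the low livers 340 and 338 were left out.

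With the second KDR probe set, r was 0.581 for STAB2, 0.573 for LYVE1 and 0.428 for TEK, and with the second TEK probe set r was 0.355 for KDR and 0.384 for STAB2. LYVE1 and TEK had an r of only 0.104. CDH5 had r between 0.0839 and 0.312 with the other 5 genes. With the other CDH5 probe sets, r was 0.424 and 0.417 for STAB2, 0.501 and 0.217 for KDR, and 0.364 for ENG with either, so the place of CDH5 depended on the probe set. ENG was least like the others, with an r of -0.395 with LYVE1 (adjusted p of 0.329, rho -0.348, permutation p-values of 0.0572 and 0.0961) and between -0.0971 and 0.136 with the remaining genes. The 4 genes below the limit were compared as a description only. STAB1 had r of 0.491 with STAB2 and 0.494 with KDR, and TIE1 had an r of 0.464 with CDH5 but of -0.0835 with its partner TEK. PECAM1 and EMCN had r between -0.249 and 0.308 with every other member.

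**Figure D3:**
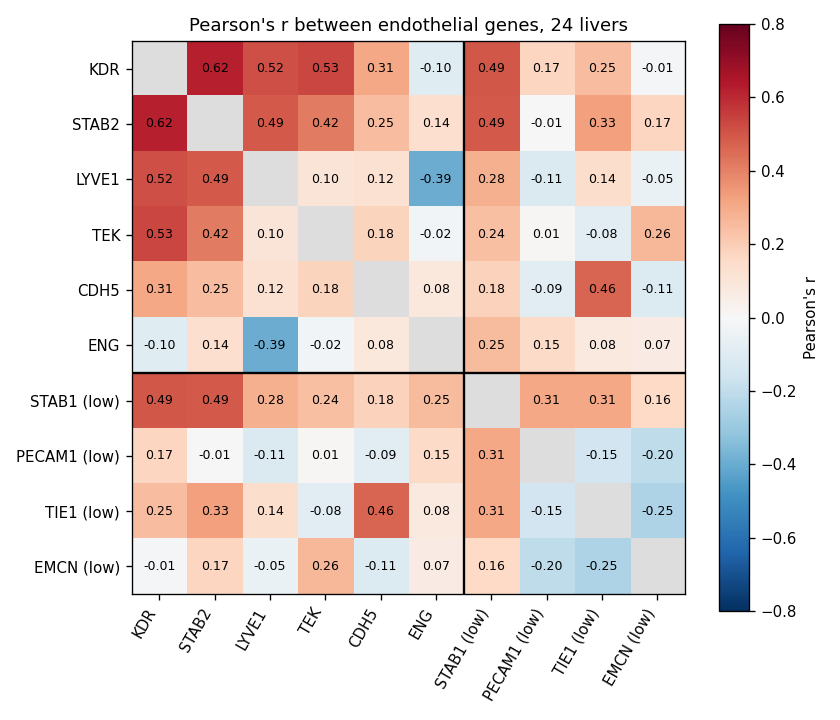
Pearson's r over 24 livers for each pair of the 10 endothelial genes (colour and printed value), with genes below the filter to the right of and below the black lines. The block of KDR, STAB2, LYVE1 and TEK holds the 5 largest values among the genes that passed, from 0.42 to 0.62, and ENG is near 0 or negative with most genes.

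**Figure D4:**
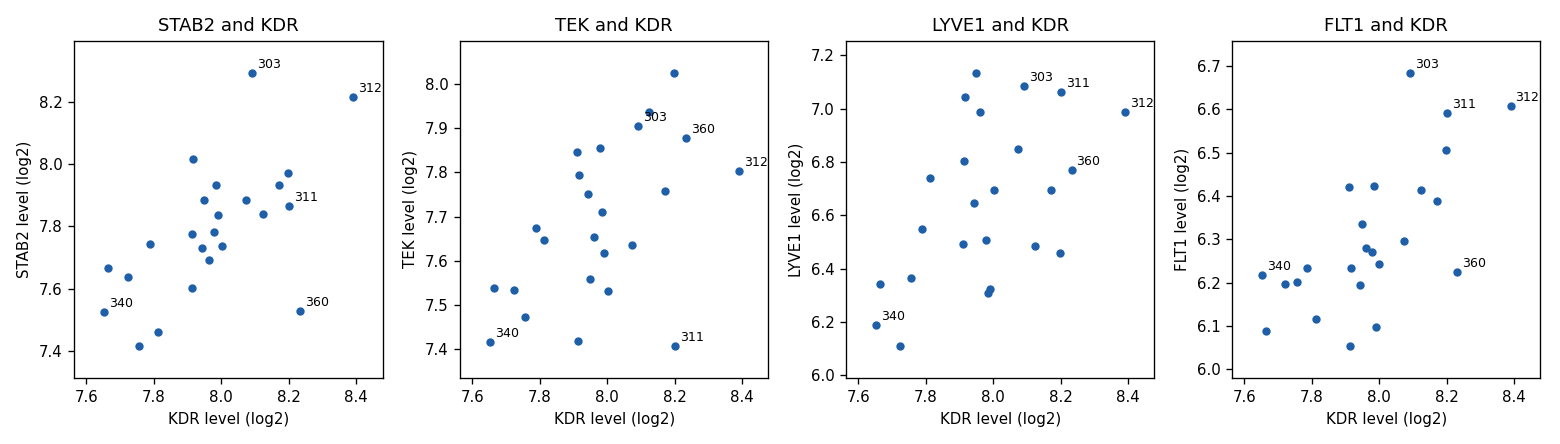
Log2 levels of STAB2, TEK, LYVE1 and FLT1 (vertical axes) against KDR (horizontal axes), 1 point per liver, with fetuses 303, 311, 312, 340 and 360 labelled. Fetus 360 lies below the trend of STAB2 with KDR and fetus 311 below that of TEK with KDR, and the r values are 0.621 for STAB2, 0.534 for TEK, 0.518 for LYVE1 and 0.673 for FLT1.

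Of 122 further genes of endothelial and vascular signalling pathways, 104 had a probe set and 32 passed the filter. These 32 genes formed 192 pairs with the 6 endothelial genes, of which 7 passed the adjusted p with positive r and 0 with negative r, where 1.79% and 0.562% of all pairs did. Their median r was 0.154. All 7 calls were lost with no filter on low signals and with the mean of all probe sets of a gene. That mean includes probe sets below the limit, and so mixes in signal near the background. Without fetuses 311 and 312 only EPAS1 with CDH5 still passed.

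Ligand and receptors of the VEGF pathway gave 3 of the 7 pairs. Of 13 listed genes 10 had a probe set and 4 passed, namely VEGFA, FLT1, the VEGF co-receptor NRP1 and PTPRB, the endothelial phosphatase that acts on TEK, and their 24 pairs had a median r of 0.328. VEGFA had levels of 7.78 to 8.38 with a median of 8.0. It correlated with its receptor KDR at an r of 0.688 (adjusted p of 0.0187, rho 0.699, permutation p-values of 0.00018 and 0.00028), and at 0.736 with the second KDR probe set. With the passing probe set of largest SD for each gene, r was 0.526 and the pair did not pass. KDR keeps its probe set in that setting, so the lower r came from another VEGFA probe set. Without fetuses 303 and 311, the farthest in VEGFA, r was 0.667, and without fetus 312 it was 0.642 and no longer passed. With STAB2, CDH5 and LYVE1 the r of VEGFA was 0.560, 0.523 and 0.489, and with TEK 0.181, none of which passed.

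FLT1, the other VEGF receptor, had levels of 6.05 to 6.68 with a median of 6.26, within or below the upper background. It correlated with STAB2 at an r of 0.685 (adjusted p of 0.0197, rho 0.657, permutation p-values of 0.00026 and 0.00066). Without fetuses 303 and 312, the highest STAB2 livers, r was 0.463, and the pair no longer passed without either fetus 303 (r of 0.588) or fetus 312 (0.625). The relation of FLT1 with STAB2 therefore rested in part on these livers. FLT1 correlated with KDR at an r of 0.673 (adjusted p of 0.0239, rho 0.657, permutation p-values of 0.00037 and 0.00081), with 0.708 for the second KDR probe set and 0.618 without fetuses 303 and 312. This pair no longer passed without fetus 312 (r of 0.606), fetus 311 (0.644) or fetus 281 (0.651). PTPRB had r of 0.567 with STAB2 and 0.484 with KDR, and NRP1 between -0.212 and 0.265 with the 6 genes, and none of these passed. The ligands ANGPT1 and ANGPT2 and the receptor FLT4 did not pass the filter.

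Among endothelial transcription factors, 16 of 21 had a probe set and 8 passed. Of their 48 pairs 3 passed the adjusted p with positive r, where 1.79% of all pairs did. ETS2, an ETS family factor, had levels of 5.85 to 6.58 and correlated with CDH5 at an r of 0.716 (adjusted p of 0.0111, rho 0.777, permutation p-values of 6e-05 and 3e-05), and at 0.657 without fetuses 311 and 312, which did not pass. EPAS1, the hypoxia-inducible factor HIF-2 alpha, had levels of 7.28 to 7.79 and correlated with CDH5 at an r of 0.692 (adjusted p of 0.0175, rho 0.586, permutation p-values of 0.00021 and 0.00301), but did not pass with Spearman's rho in place of r. For EPAS1 the low CDH5 liver, fetus 376, mattered, since r was 0.537 without it and did not pass, and 0.558 without fetuses 281 and 376. With the other CDH5 probe sets r was 0.398 and 0.418 for ETS2 and 0.360 and 0.498 for EPAS1. ETS1, a factor of the same family as ETS2, had levels of 6.73 to 7.20 and correlated with TEK at an r of 0.646 (adjusted p of 0.0362, rho 0.634, permutation p-values of 0.00075 and 0.00121). Its r was 0.501 with the second TEK probe set, 0.589 without fetuses 281 and 363 and 0.584 without fetus 281 alone, and this pair passed in 13 of 24 fits that each left out 1 liver. ERG, a factor typical of endothelium, had levels of 5.54 to 7.21 and r of 0.570 with STAB2 and 0.535 with KDR, which did not pass.

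Other receptors of sinusoidal cells gave 1 of the 7 pairs. Of 16 listed scavenger and lectin receptors 12 had a probe set and 6 passed. Of 36 pairs 1 passed the adjusted p with positive r, where 1.79% of all pairs did, so this single call is close to that share. FCGR2B, the inhibitory Fc receptor through which sinusoidal endothelium takes up immune complexes, had levels of 8.02 to 8.97. It correlated with CDH5 at an r of 0.638 (adjusted p of 0.0404, rho 0.644, permutation p-values of 0.00089 and 0.00098), and at 0.606 without fetuses 311 and 352. With the other CDH5 probe sets r was only 0.169 and 0.201, and the pair passed in 11 of 24 fits that each left out 1 liver. OIT3, a marker of sinusoidal endothelium in mouse, had levels of 8.81 to 9.61 and r of 0.597 with KDR and 0.516 with STAB2, which did not pass. The mannose receptor MRC1 had r between 0.0106 and 0.203 with the 6 genes.

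Of the VE-cadherin junction list 11 of 12 genes had a probe set and 5 passed, and 0 of 30 pairs passed the adjusted p in either direction. The beta-catenin gene CTNNB1 had r of 0.598 with STAB2 and 0.0282 with CDH5 itself, and the tight junction gene OCLN r of 0.600 with KDR and 0.598 with TEK. Of the endoglin pathway, all 16 genes had a probe set and 3 passed (BMPR2, TGFBR2 and SMAD4), with r between 0.0449 and 0.239 with ENG, and 0 of 18 pairs passed. The receptor ACVRL1, the partner of endoglin, did not pass the filter. Of the Notch list 2 of 9 measured genes passed, HEY2 and RBPJ, and of other endothelial genes 4 of 30, namely PLVAP, CAV1, TM4SF1 and PROX1, and none of their 12 and 24 pairs passed. PLVAP, the diaphragm protein of fenestrae, had r of 0.598 with ENG and 0.0864 with KDR. VWF (median of 6.04), CD34 and NOS3, from the list of other endothelial genes, did not pass the filter. DNASE1L3 of the sinusoidal receptor list (median of 5.05) did not pass either, so failing the filter was not particular to 1 of these lists.

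**Figure D5:**
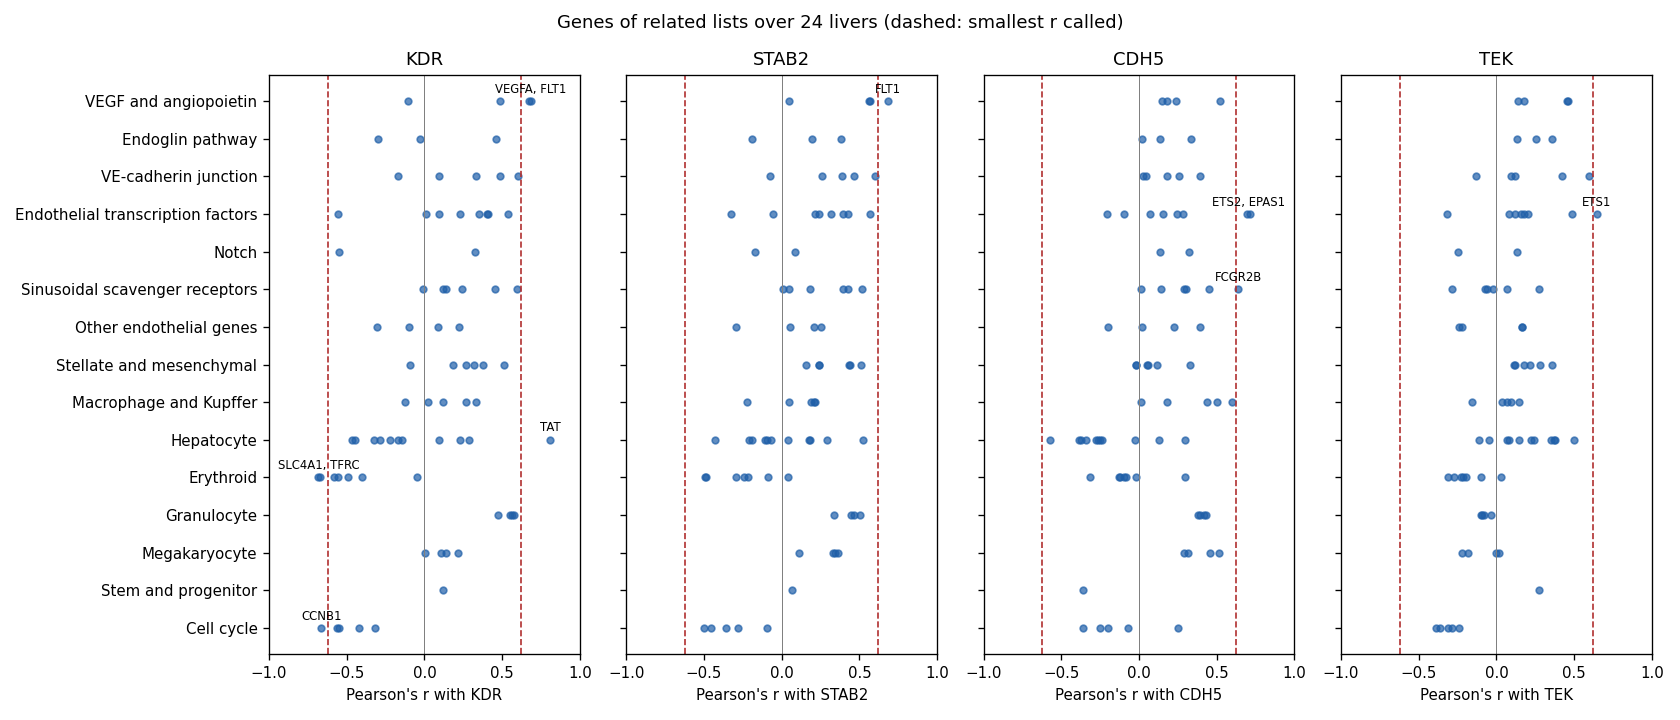
Pearson's r over 24 livers of each gene that passed in the related lists (1 point per gene, lists on the vertical axis) with KDR, STAB2, CDH5 and TEK (horizontal axes); the dashed lines mark r of 0.622 in both directions, the smallest that passed the adjusted p. Named genes lie beyond the lines, with VEGFA, FLT1 and TAT to the right for KDR, SLC4A1, TFRC and CCNB1 to the left, FLT1 for STAB2, ETS2, EPAS1 and FCGR2B for CDH5, and ETS1 for TEK.

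Markers of other cells of the liver were set against the 6 genes in the same way, and all calls concerned KDR. Of the erythroid list 9 of 14 genes had a probe set and 7 passed, and 2 of 42 pairs passed with negative r, against 0.562% of all pairs. TFRC, the transferrin receptor, had levels of 9.59 to 10.82 and correlated with KDR at an r of -0.683 (adjusted p of 0.0204, rho -0.746, permutation p-values of 0.00028 and 3e-05), and at -0.696 without fetuses 312 and 274, the farthest in TFRC. Without fetus 312 alone r was -0.597 and the pair did not pass. SLC4A1, the anion exchanger of red cells, had levels of 9.76 to 10.76 and an r of -0.673 with KDR (adjusted p of 0.0239, rho -0.536, permutation p-values of 0.00028 and 0.00771). Its r was -0.518 without fetuses 320 and 312, the farthest in SLC4A1. Without fetus 312 it was -0.562 and without fetus 324 it was -0.628, and the pair then did not pass. With the second KDR probe set r was -0.417 for TFRC and -0.567 for SLC4A1. With the array medians aligned, r was -0.610 for TFRC and -0.578 for SLC4A1 and neither passed, and SLC4A1 did not pass with Spearman's rho. HBE1 and KLF1 did not pass. The log2 of the summed erythroid signal, in which HBB weighs most, ran from 13.15 to 13.59. The mean of the log2 levels of the 7 genes, a separate measure, was lowest in fetus 312 (9.44), the liver with the highest KDR level. This mean was highest in fetus 340 (10.12), the liver with the lowest KDR level.

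Of the cell cycle list 5 of 6 genes had a probe set and all 5 passed. The log2 of their summed signal ran from 9.34 to 10.04. Of 30 pairs 1 passed with negative r, against 0.562% of all pairs and 1.57% of all genes tested with KDR. CCNB1, the mitotic cyclin B1, had levels of 7.33 to 8.16 and an r of -0.665 with KDR (adjusted p of 0.0271, rho -0.614, permutation p-values of 0.0004 and 0.00189). Its r was -0.402 with the second KDR probe set and -0.545 without fetuses 327 and 312, the farthest in CCNB1, and the pair no longer passed without fetus 312 (r of -0.574), fetus 340 (-0.627) or fetus 281 (-0.640), with the array medians aligned (-0.594) or with Spearman's rho. The granulocyte list had 4 of 6 measured genes past the filter, while LTF and CSF3R did not pass. The log2 of the summed signal of these 4 genes ran from 9.22 to 12.60. Its genes MPO, S100A8, S100A9 and S100A12 had r of 0.471 to 0.574 with KDR, none of which passed. Without fetuses 311 and 312 these r values were 0.0903 to 0.265. The mean level of the list was 10.40 in fetus 311 against a median of 7.52. The part of erythroid, cycling and granulocyte cells in the variation of KDR was not tested.

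TAT, the tyrosine aminotransferase of hepatocytes, had the highest r with KDR of all genes tested. It had levels of 8.53 to 10.73 with a median of 9.39, and r with KDR was 0.809 (adjusted p of 0.000945, rho 0.758, permutation p-values of 1e-05, the smallest that 100000 resamples can give, and 3e-05). The relation held with the second KDR probe set (r of 0.745), without fetuses 360 and 311 (0.785), and in 24 of 24 fits that each left out 1 liver. With the mean of all probe sets of each gene, those below the limit included, r was 0.593 and did not pass. The other 10 hepatocyte genes that passed had r between -0.464 and 0.287 with KDR, among them ALB at -0.446 and HNF4A at 0.0913, and none of their pairs with the 6 genes passed. Of the stellate and mesenchymal list 6 of 12 measured genes passed, of the macrophage list 5 of 11, of the megakaryocyte list 4 of 8 and of the stem and progenitor list 1 of 7, and none of their pairs passed. The macrophage genes C1QC and C1QA had r of 0.601 and 0.499 with CDH5, which did not pass. No lymphocyte or biliary marker passed the filter.

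The 6 genes differed in how many other genes they varied with. Among 3378 other genes, KDR passed with 66 in the positive direction (1.95%) and 53 in the negative direction (1.57%), against 1.79% and 0.562% of all pairs. The positive share of KDR was thus near that of all pairs. The other genes had fewer, with 21 positive and 0 negative for STAB2, 20 and 2 for ENG, 18 and 7 for LYVE1, 17 and 0 for CDH5, and 10 and 1 for TEK. Their positive shares, from 0.296% for TEK to 0.622% for STAB2, lay below that of all pairs. The first principal component was taken over all probe sets that passed the filter, including controls and those without a gene symbol. It held 20.9% of the variance and had fetuses 311 and 312 farthest out. As a description, KDR followed it with an r of 0.674 (0.517 without these 2 livers), STAB2 with 0.548 (0.462), CDH5 with 0.433 (0.248) and LYVE1 with 0.411 (0.221). TEK had 0.192 (0.421) and ENG -0.0815 (0.113).

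The genes most like each member, by Pearson's r over the 24 livers, are given as a description. For KDR they were TAT (0.809), NFE2L1, a transcription factor of proteasome genes (0.791), and MKNK1, a kinase of the translation machinery (0.789). For STAB2 they were ATP5G2, a subunit of the mitochondrial ATP synthase (0.737), the heparan sulfate proteoglycan SDC4 (0.732) and the membrane-bound metalloproteinase MMP14 (0.730). For LYVE1 they were BTG1, an antiproliferative factor (0.767), the plasma protein ITIH4 (0.724) and ANKRD46 (0.699). For CDH5 they were BAT5 (0.768), the exocyst subunit EXOC7 (0.757) and ETS2 (0.716), and with the other CDH5 probe sets r was 0.643 and 0.414 for BAT5 and 0.626 and 0.601 for EXOC7. For TEK they were the plasma carboxypeptidase CPN1 (0.775), GPX7, a peroxidase of the endoplasmic reticulum (0.674), and ETS1 (0.646). For ENG they were the proteasome subunit PSMD3 (0.798), POLR2A, the largest subunit of RNA polymerase II (0.751), and the kinase GSK3A (0.744). Of these 18 genes only ETS1 and ETS2 belonged to the endothelial lists, and no gene was among the nearest of more than 1 member. BTG1, ANKRD46, MMP14 and ETS2 had low medians of 6.20, 6.21, 6.31 and 6.10. These lay below the 95th percentile of the background controls on every array, the lowest of which was 6.52.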

How the data were processed

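Liver RNA of 24 fetuses was hybridized to Snowball arrays. Quality was controlled with GCOS 1.1.1, and the authors made the deposited log2 values by RMA in Expression Console; their detection calls and low-signal filter were not applied here. Positions and sequences were not analysed here, the array's genome build being not given in the sources used. Arrays have no depth, and the number of arrays limits the precision.

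Gene symbols came from the platform annotation. The filter kept probe sets at a log2 level of 6 or more on 75% of arrays. Pearson's r was computed for all pairs of 3379 genes, with p from the t distribution and Benjamini-Hochberg adjustment, called at an adjusted p below 0.05. Permutation tests were two-sided with 100000 resamples. Named genes are the 10 members, for each passing member the 3 genes with the highest r, and list genes called with a member; other list genes named were chosen after their values were seen. The members and lists were chosen with earlier results of these data known. The pair test was tested on simulated data. Alternatives were limits of 5 and 7, each array's own background and no filter, Spearman's rho, other probe set choices, aligned array medians, regression on technical measures and livers left out. Python 3.11.15, numpy 2.4.6, pandas 2.3.3, scipy 1.17.1 and matplotlib 3.10.9 were used.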

Additional observations from a re-analysis of the deposited data

How the results depend on the processing

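The number of endothelial genes past the filter was 6, 7 with a limit of 5 (STAB1 added), and 5 with a limit of 7 or with each array's own background 95th percentile (LYVE1 lost). The number of endothelial pairs called with positive r was 0, and 1 with a limit of 7, 1 with aligned array medians (both STAB2 and KDR) and 1 without fetuses 311 and 312 (KDR and TEK). It stayed at 0 with a limit of 5, no filter, Spearman's rho, both other probe set choices, both regressions on technical measures and without fetus 274. Leaving out each of the 24 livers in turn, an alternative chosen after seeing the data, gave 0 to 1 such pairs. Of the 11 called pairs with list genes, TAT with KDR was called under 10 of 11 alternatives, the exception being the mean of all probe sets (r of 0.593), and only this pair and EPAS1 with CDH5 remained called without fetuses 311 and 312. With no filter, where more pairs share the adjustment, TAT with KDR was the only one of the 11 still called. The pairs of KDR with SLC4A1, TFRC and CCNB1 were not called with aligned array medians, those of EPAS1 with CDH5 and of SLC4A1 and CCNB1 with KDR not with Spearman's rho, and those of VEGFA with KDR and of ETS2, EPAS1 and FCGR2B with CDH5 not with the probe set of largest SD. The r of these 11 pairs kept its sign, as did that of STAB2 with KDR, KDR with TEK and LYVE1 with STAB2 and KDR. Endothelial pairs with r near 0 did change sign under some alternatives, namely LYVE1 with CDH5 (to -0.0979), CDH5 with ENG (to -0.0313), KDR with ENG (to 0.00624) TEK with ENG (to 0.0730) and, without fetus 340, LYVE1 with TEK (to -0.00144). No paired analysis was possible because the labels give no groups. The signal over background limits, among the endothelial genes and the list genes called with them, LYVE1, FLT1, ETS1 and ETS2, whose levels overlap the upper background. Among the nearest genes it also limits BTG1, ANKRD46 and MMP14, whose medians lay below the upper background.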

Other observations

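The probe set for miR-126, a microRNA hosted by the endothelial gene EGFL7, had a lowest level of 0.59, a median of 0.94 and a highest level of 1.77 in the 24 livers, with the median below the median of the background controls of 1.55, so no level of this microRNA could be read from it.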
